A study of Homo sapiens with 10 samples.

Results

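The 10 genes described here set the pace of the G1 phase of the cell cycle. They are the D cyclins CCND1, CCND2 and CCND3, the E cyclin CCNE1, the kinases CDK4 and CDK6, the CIP/KIP inhibitors CDKN1A (p21) and CDKN1B (p27), and the INK4 inhibitors CDKN2A (p16 and ARF) and CDKN2B (p15). They are listed by symbol, and the choice was made with earlier results of these data known. They are 10 of the 31017 genes in the RNA-seq count table. Each also had a bait of its own, so that 10 of the 21833 baits in the promoter contact lists belong to them. A bait is the HindIII restriction fragment that holds the start of the gene and was captured with it.

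The study compared human embryonic stem cells (ESCs) of the H9 line, kept in pluripotent culture, with neuroectodermal cells (NECs) made from that line and harvested on day 7 of differentiation. RNA-seq and Promoter Capture Hi-C (PCHi-C), which sequences ligation products that contain a promoter, each had 2 biological replicates per cell type. A single cell line stands behind all of the samples, the labels name no engineered change in either cell type, and both the ESC and the NEC state are properties of bulk cultures. The labels place the ESC RNA-seq libraries in one sequencing lane and the NEC libraries in another, so lane and cell type cannot be told apart.

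D cyclins bind CDK4 and CDK6, and these complexes begin to phosphorylate the retinoblastoma protein RB1. Cyclin E with CDK2 completes that step, which frees E2F factors to transcribe the genes of S phase. INK4 proteins bind CDK4 and CDK6 themselves, whereas CIP/KIP proteins bind assembled cyclin-CDK complexes. Pluripotent stem cells are known for a short G1 phase, which lengthens as they differentiate.

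Promoters of 8 of the 10 genes, those other than CCND1 and CCND2, were matched in the RefSeq table (GRCh38.p14). Some genes had more than 1 start there, which gave 12 promoters. The 250 bases before the start are printed for the genes whose RNA differed most between the cell types, 5′ to 3′ on the strand of the gene, with GC boxes (GGGCGG on either strand) in capitals.
CCNE1, chr19:29811741-29811990, plus strand: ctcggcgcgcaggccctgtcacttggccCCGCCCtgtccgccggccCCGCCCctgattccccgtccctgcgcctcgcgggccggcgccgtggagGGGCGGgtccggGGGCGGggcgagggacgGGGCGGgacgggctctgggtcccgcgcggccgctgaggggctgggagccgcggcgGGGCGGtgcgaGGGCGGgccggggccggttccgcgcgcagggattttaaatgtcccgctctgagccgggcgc
CDKN1A, chr6:36678464-36678713, plus strand: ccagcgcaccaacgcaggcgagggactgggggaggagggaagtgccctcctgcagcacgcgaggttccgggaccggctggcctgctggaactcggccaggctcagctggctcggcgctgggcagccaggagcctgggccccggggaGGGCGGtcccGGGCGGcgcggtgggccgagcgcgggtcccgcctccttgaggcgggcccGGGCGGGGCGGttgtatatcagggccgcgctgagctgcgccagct
CDKN1B, chr12:12717118-12717367, plus strand: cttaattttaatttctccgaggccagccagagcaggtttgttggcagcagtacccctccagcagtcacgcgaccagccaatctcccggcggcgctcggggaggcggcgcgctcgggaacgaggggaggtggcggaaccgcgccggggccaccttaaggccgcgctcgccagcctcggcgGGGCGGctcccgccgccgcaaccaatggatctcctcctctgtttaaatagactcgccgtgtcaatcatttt
CDKN2A, distal start, chr9:21995325-21995574, minus strand: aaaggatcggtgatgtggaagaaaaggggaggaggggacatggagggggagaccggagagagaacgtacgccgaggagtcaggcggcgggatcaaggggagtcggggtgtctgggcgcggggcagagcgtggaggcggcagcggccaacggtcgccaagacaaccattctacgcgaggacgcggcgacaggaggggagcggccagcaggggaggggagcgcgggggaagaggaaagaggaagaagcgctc
CDKN2A, proximal start, chr9:21974858-21975107, minus strand: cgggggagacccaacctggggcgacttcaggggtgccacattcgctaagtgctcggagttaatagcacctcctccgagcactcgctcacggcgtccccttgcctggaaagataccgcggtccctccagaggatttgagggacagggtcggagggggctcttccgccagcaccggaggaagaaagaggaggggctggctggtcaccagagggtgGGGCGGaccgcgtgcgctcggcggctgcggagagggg
CDKN2B, chr9:22009306-22009555, minus strand: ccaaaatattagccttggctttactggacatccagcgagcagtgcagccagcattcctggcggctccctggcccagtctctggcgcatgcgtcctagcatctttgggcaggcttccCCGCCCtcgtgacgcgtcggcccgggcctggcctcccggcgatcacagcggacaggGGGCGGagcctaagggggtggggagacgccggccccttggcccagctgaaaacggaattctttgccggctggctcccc

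Each of the 12 promoters was found once in GRCh37, the build of the count table and the contact lists. CDKN2A has 2 of them, and the distal one serves ARF and the proximal one p16. The distal one lay inside the CDKN2A bait and the proximal one did not, so the bait reads contacts of the ARF start. The count table gives 1 row per gene, and it does not separate the transcripts of p16 and ARF. The 300 bases around a start held at least 1 GC box in 9 of the 12 promoters, against 15786 of all 35116 promoters in the table. An E-box (CACGTG) was found in the promoters of CDK4, with 3 matches, and CDK6, against 7.26% of all promoters. An E2F motif (TTTGGCGC, TTTCGCGC, TTTCCCGC or TTTGCCGC) was found in 0 of 12, against 3.31%, and a TATA box (TATAAA) in 0 of 12, against 11.5%. The CCAAT letters were found in 3 of 12, against 34.6%. Both strands were searched, and matches of different motifs did not overlap. These counts say only which letters stood in these windows.

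Levels were compared between genes per kilobase of exon (RPKM, from counts on TMM-normalised library sizes), and are shown in the plot of levels by library. The exon lengths came from a later annotation than the counts, so RPKM values are approximate. For CDKN1B the length used, 9255 bases, exceeds the whole span of the gene in the count table (chr12:12867992-12875305), and its RPKM is therefore understated. CDK4 shares 1369 of its 3094 exonic bases with TSPAN31, and CCND1 497 of its 4761 with ORAOV1, both on the opposite strand. Reads were counted without strand, so the RPKM of CDK4 and CCND1 may include reads of those genes. How many was not tested. In ESCs the order was CDK4 (67.4 RPKM), CCND1 (55.4), CCNE1 (22.1), CCND2 (7.11), CCND3 (5.08), CDKN1A (4.35), CDK6 (3.95), CDKN1B (2.73), CDKN2A (0.353) and CDKN2B (0.247). The replicate ranges of neighbours overlapped for CCND3 with CDKN1A and for CDKN1A with CDK6. In NECs CDK4 (79.3 RPKM) and CCND1 (43.8) again stood highest, and CDKN1A (11.4) had moved to the third place, overlapping CCNE1 (11.3). CCND2 followed at 9.22, CDKN1B at 5.23, CCND3 at 3.96 and CDK6 at 3.47. CDKN2B (0.0706) and CDKN2A (0.0546) stood lowest and overlapped. The INK4 genes were thus the lowest of the 10 in both cell types.

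**Figure D1:**
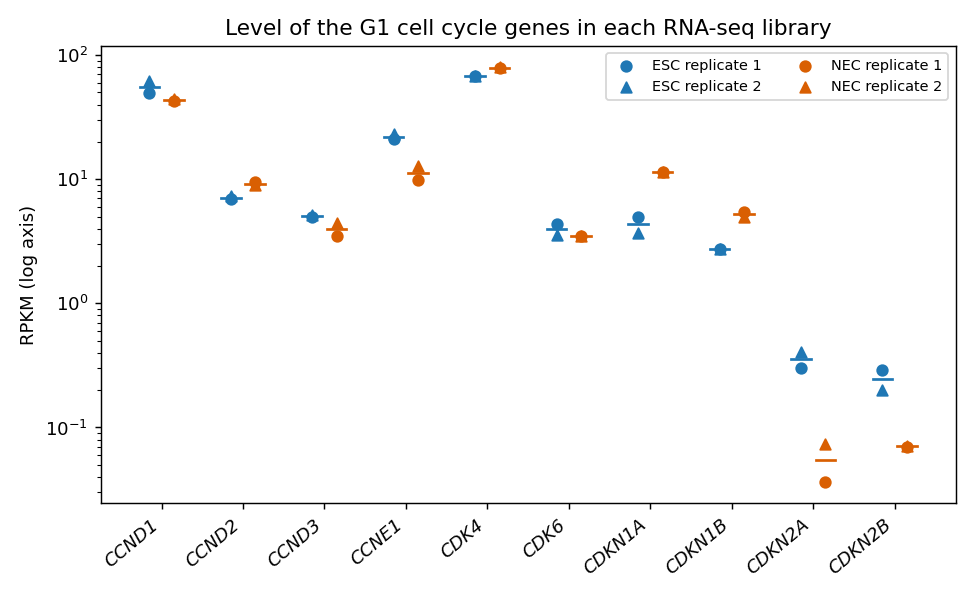
RPKM of each gene on a log axis in ESC (blue) and NEC (orange) libraries, with circles for replicate 1, triangles for replicate 2 and bars for the mean of 2. CDK4 and CCND1 are the highest in every library, and CDKN2A and CDKN2B the lowest.

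Between ESCs and NECs, CDKN2A and CDKN2B fell and the other 8 genes moved by less than the fold threshold. A gene was called when edgeR's quasi-likelihood test gave it an adjusted p (Benjamini-Hochberg) under 0.05 and its log2 fold change exceeded 1.5 in size. By this rule 0 of the 10 genes were called higher in NECs, where 11.4% of all 17564 tested genes were, and 2 were called lower, against 9.68%. In either direction the share of all genes was 21.0%. With DESeq2's test 0 were called higher and 1 lower, against 10.2% and 9.02% of all genes. At an unadjusted p under 0.05 in edgeR 4 were higher and 5 lower, against 33.8% and 32.0%. By the adjusted p alone 4 were higher and 3 lower, against 31.5% and 29.7% of all tested genes. The median log2 fold change of the 10 was −0.26 and that of all tested genes 0.01. Fewer cells with an RNA and less RNA per cell cannot be told apart in such bulk samples.

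Among the D cyclins, CCND1 (chr11:69455855-69469242) was measured at 234 and 294 CPM (reads scaled to library size) in ESC replicates 1 and 2, and at 205 and 213 CPM in the NEC replicates. Both NEC libraries lay below both ESC libraries, but the log2 fold change of −0.34 (SE 0.13) had an adjusted p of 0.053 in edgeR. CCND1 shares 497 of its 4761 exonic bases with ORAOV1 on the opposite strand. CCND2 (chr12:4382938-4414516) was measured at 55.5 and 58.1 CPM in ESCs and at 75.4 and 71.9 CPM in NECs. Its groups did not overlap, and it was 1.30-fold higher in NECs (log2 fold change 0.37, standard error 0.09, edgeR, adjusted p = 0.0103). CCND3 (chr6:41902671-42018095) was measured at 28.7 and 29.9 CPM in ESCs and at 20.1 and 25.5 CPM in NECs, a log2 fold change of −0.36 (standard error 0.14, edgeR, adjusted p = 0.0648). So CCND2 alone of the D cyclins was higher in NECs and passed on the adjusted p, and the differences between the cyclins were not tested. Without ESC replicate 1 or 2, the edgeR adjusted p of CCND2 became 0.0967 or 0.0522, and over its 10 alternatives it ran from 0.00581 to 0.0967.

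Of the partner kinases, CDK4 (chr12:58142034-58149796) was measured at 208 and 209 CPM in ESCs and at 242 and 249 CPM in NECs. The NEC libraries were both higher, by 1.18-fold (log2 fold change 0.23, SE 0.08), with an edgeR adjusted p of 0.0488 that lay just under the threshold and became 0.0649 with DESeq2's size factors. Over 10 alternatives the adjusted p of CDK4 ran from 0.0194 to 0.302. CDK4 shares 1369 of its 3094 exonic bases with TSPAN31 on the opposite strand, a gene with a log2 fold change of 0.54 (SE 0.08), and reads were counted without strand. CDK6 (chr7:92234235-92465908) was measured at 53.1 and 43.7 CPM in ESCs and at 42.5 and 42.4 CPM in NECs. Its 2 ESC replicates lay further apart than ESC replicate 2 and the NEC libraries, and its log2 fold change of −0.19 (SE 0.12) did not pass (edgeR adjusted p = 0.209).

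CCNE1 (chr19:30302901-30315216), whose protein activates CDK2 late in G1, was measured at 51.4 and 57.2 CPM in ESCs and at 24.2 and 31.3 CPM in NECs. The groups did not overlap, and the gene was 1.96-fold lower in NECs. Its log2 fold change of −0.97 (standard error 0.14, edgeR, adjusted p = 0.00159) did not reach the fold threshold. The value lay between −1.17 and −0.79 under the 10 alternatives, all of them with an adjusted p under 0.05.

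CDKN1A (chr6:36644305-36655116), the p21 inhibitor that p53 induces, had the largest positive log2 fold change of the 10 genes. It was measured at 14.99 and 11.0 CPM in ESCs and at 34.2 and 34.4 CPM in NECs. The groups were well apart, with a 2.64-fold higher level in NECs (log2 fold change 1.40, standard error 0.16, edgeR, adjusted p = 0.000617). CDKN1A was called without ESC replicate 1, where its log2 fold change was 1.61, and was not called in the full data, where it fell short of 1.5. CDKN1B (chr12:12867992-12875305), the p27 inhibitor, was measured at 25.3 CPM in both ESC replicates and at 50.6 and 46.1 CPM in NECs. It was 1.91-fold higher there (log2 fold change 0.93, standard error 0.10, edgeR, adjusted p = 0.000468). Both CIP/KIP genes had an adjusted p under 0.05 under each of their 10 alternatives.

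The INK4 genes went the other way and rested on few reads. CDKN2A (chr9:21967751-21995300) had 22 and 39 reads in the ESC libraries and 3 and 7 in the NEC libraries. The groups did not overlap, and the fall had a log2 fold change of −2.65 (standard error 0.46, edgeR, adjusted p = 0.00299). Over the summed reads, 61 against 10, the level was 6.44 times as high in ESCs (95% interval 3.28 to 14.1, exact binomial, counting error only). CDKN2B (chr9:22002902-22009280) had 22 and 20 reads in ESCs and 6 and 7 in NECs, and its log2 fold change was −1.77 (standard error 0.42, edgeR, adjusted p = 0.0105). Its summed reads gave a ratio of 3.41 (95% interval 1.80 to 6.93). CDKN2A was called under each of its 10 alternatives. Its log2 fold change ran from −3.25 without NEC replicate 2 to −2.26 without NEC replicate 1. CDKN2B was called under 7 of 9, and not with DESeq2's test (adjusted p = 0.0888) or without ESC replicate 1 (edgeR adjusted p = 0.107). Over these 9 its adjusted p ran from 0.00699 to 0.107. DESeq2 gave larger standard errors than those derived from edgeR, 0.92 for CDKN2A and 0.94 for CDKN2B.

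The INK4 genes have overlapping neighbours and a shared sequence. The transcripts of CDKN2A and CDKN2B share an identical run of 80 bases, and a read that lies within it matches both. How much such reads add to either count was not tested. CDKN2A shares 593 exonic bases of the lifted GENCODE annotation with the antisense gene CDKN2B-AS, which had 5 and 5 reads in ESCs and 0 and 0 in NECs. Both inhibitor genes also lie within the annotated span of MTAP, without sharing exons with it.

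**Figure D2:**
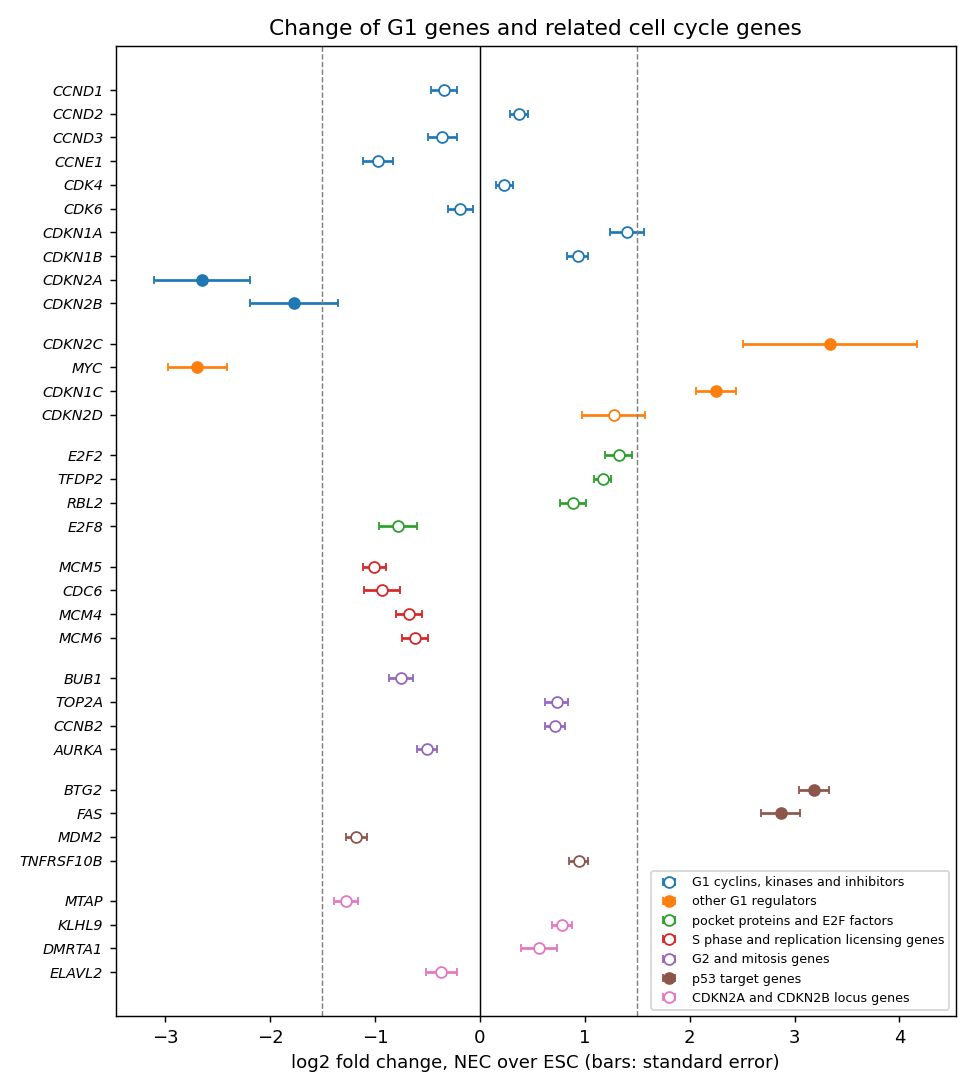
Log2 fold change, NEC over ESC, with its standard error for the 10 genes and for named genes of the related lists, with filled points for called genes and dashed lines at −1.5 and 1.5. CDKN2A and CDKN2B lie left of the lower line, and CDKN1A at 1.40 lies just inside the upper one.

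The genes whose libraries stood nearest to those of CDKN1A in log2 CPM were SERTAD2 (distance 0.152), IER5 (0.180) and PDK2 (0.241). SERTAD2 was measured at 14.7 and 10.6 CPM in ESCs and at 34.2 and 31.3 CPM in NECs. For CDKN2A, the gene with the largest fall, they were C16orf54 (0.499), CXCL3 (0.530) and PRRG4 (0.623). These distances run over 4 libraries and describe only a like level and pattern.

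Among 13 other G1 regulators, 2 rose and 1 fell by the call rule, against 11.4% and 9.68% of all tested genes. Their median log2 fold change was −0.19. CDKN1C, the p57 member of the CIP/KIP family, rose from 8.27 to 39.2 CPM (log2 fold change 2.25, SE 0.19). CDKN2C, the p18 member of the INK4 family, had 1 and 4 reads in ESCs against 40 and 14 in NECs (log2 fold change 3.34, SE 0.83), a ratio of 10.2 (95% interval 4.12 to 32.8) over the summed reads. Its log2 fold change was 2.27 without NEC replicate 1 and 4.36 without ESC replicate 2, and it was called in both cases. CDKN2D, the remaining INK4 gene, had a log2 fold change of 1.28 (standard error 0.30, edgeR, adjusted p = 0.0099) and was not called. Within the INK4 family, then, CDKN2A and CDKN2B were called lower and CDKN2C was called higher. MYC fell from 90.5 to 13.9 CPM (log2 fold change −2.69, SE 0.28), and its NEC replicates differed, with 200 and 456 reads. Without NEC replicate 2 its log2 fold change was −3.28.

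In the 13 pocket protein and E2F genes, edgeR called 0 in either direction, against 21.0% of all tested genes. DESeq2's test also called 0, against 10.2% higher and 9.02% lower. At an unadjusted p under 0.05 in edgeR 5 were higher and 3 lower, near the 33.8% and 32.0% of all genes. The 4 with the greatest change were E2F2 (log2 fold change 1.32, SE 0.13), TFDP2 (1.17, SE 0.08), RBL2 (0.89, SE 0.12), which encodes the p130 pocket protein, and E2F8 (−0.78, SE 0.18). The median of the list was 0.04.

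Of 17 S phase and licensing genes 0 were called by edgeR (21.0% of all genes) or DESeq2 (10.2% of all genes higher and 9.02% lower). At an unadjusted edgeR p under 0.05 3 were higher and 9 lower, against 33.8% and 32.0% of all genes. MCM5 (log2 fold change −1.004, SE 0.11), MCM4 (−0.67, SE 0.12) and MCM6 (−0.62, SE 0.13), subunits of the replicative helicase, and the licensing factor CDC6 (−0.93, SE 0.17) had the greatest changes. The median of the list was −0.28. Of 11 G2 and mitosis genes 0 were called by edgeR or DESeq2, against the same shares of all genes. At an unadjusted edgeR p under 0.05 2 were higher and 4 lower, against 33.8% and 32.0%. BUB1 had a log2 fold change of −0.75 (SE 0.11), AURKA of −0.50 (SE 0.10), TOP2A of 0.73 (SE 0.11) and CCNB2 of 0.71 (SE 0.09).

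Of 12 p53 target genes, a list that does not hold CDKN1A, 2 rose and 0 fell by the call rule, against 11.4% and 9.68% of all tested genes. DESeq2's test gave the same counts, against 10.2% and 9.02%. At an unadjusted edgeR p under 0.05 4 were higher and 2 lower, where 33.8% and 32.0% of all genes were. BTG2, which restrains proliferation, rose from 5.74 to 52.1 CPM (log2 fold change 3.19, SE 0.15). FAS, a death receptor, rose from 2.13 to 15.7 CPM (log2 fold change 2.87, SE 0.19). TNFRSF10B had a log2 fold change of 0.94 (SE 0.09), and MDM2, the ubiquitin ligase for p53, had one of −1.18 (SE 0.10). The list therefore held members on both sides, and its median was 0.24.

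Around the INK4 genes on chromosome 9, MTAP, a gene of methionine salvage, had a log2 fold change of −1.27 (standard error 0.11, edgeR, adjusted p = 0.000242), with 1686 and 2545 reads in ESCs and 799 and 1041 in NECs. KLHL9 (0.78, SE 0.10) and DMRTA1 (0.56, SE 0.17) had positive log2 fold changes, and ELAVL2 had one of −0.37 (SE 0.15). Of the 4 locus genes tested 0 were called by edgeR (21.0% of all genes) or DESeq2 (10.2% of all genes higher and 9.02% lower). At an unadjusted edgeR p under 0.05 2 were higher and 2 lower, against 33.8% and 32.0% of all genes.

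Most markers of the cell types moved with the labels, and some also differed between replicates. The neuroectoderm marker OTX2 was lower in NECs (log2 fold change −1.33, edgeR, adjusted p = 0.00321) and was not called. The neural crest markers FOXD3 (−1.81) and EDNRB (−0.70) and the neuron marker RBFOX3 (−0.47) were also lower, without an adjusted p under 0.05 in edgeR. By the call rule, which called 11.4% of all tested genes higher and 9.68% lower, 7 of 8 pluripotency markers fell and 7 of 8 neuroectoderm markers rose. The rule also called 5 of 8 neural crest and 5 of 7 tested neuron markers higher and 6 of 7 tested mesendoderm markers lower. Without ESC replicate 2, 3 of 7 tested were called lower. Summed over its list, the pluripotency level was 5827 and 6112 CPM in ESCs and 1059 and 1580 CPM in NECs, and 8 of 8 markers were higher in NEC replicate 2. Of the 10 genes, 7 were higher in that replicate, as were 50.4% of all tested genes. Among the 7, CDKN1A and CDKN2B were almost level. The mesendoderm sum was 36.7 and 102 CPM in ESC replicates 1 and 2, against 6.74 and 5.07 CPM in NECs. Of the 10 genes, 6 were higher in ESC replicate 2, as were 49.4% of all tested genes. The neural crest sum was 157 and 76.9 CPM in ESCs and 235 and 123 CPM in NECs, so the cell types overlapped. EDNRB made up 133 and 53.3 CPM of it in ESCs. In NECs no marker of these lists was at or under 3 reads in both libraries. The part of such cells in the changes of the 10 genes was not tested.

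In PCHi-C, a promoter-interacting region (PIR) is the fragment that a bait was found to contact. The authors scored contacts with CHiCAGO, and pairs scored 12 or more are listed by replicate and, merged, by cell type. The lists hold scores and no read numbers, so the depth behind a score is unknown from them. All 240 bait and PIR fragments of the 10 genes began and ended at a HindIII site (AAGCTT) of GRCh37, with 0 such sites inside. The following sequences show the ends of the CCND2 bait and of the PIR with its highest NEC score, at which the ligation that is read as a contact can take place, on the plus strand of GRCh37 with the sites in capitals.
CCND2 bait, left end, chr12:4380817-4380876: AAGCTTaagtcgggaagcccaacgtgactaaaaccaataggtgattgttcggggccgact
CCND2 bait, right end, chr12:4386540-4386599: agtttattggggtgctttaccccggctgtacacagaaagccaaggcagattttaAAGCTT
PIR, left end, chr12:4146123-4146182: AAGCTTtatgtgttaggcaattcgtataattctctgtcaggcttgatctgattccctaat
PIR, right end, chr12:4149529-4149588: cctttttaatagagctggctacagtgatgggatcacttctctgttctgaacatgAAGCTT

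The baits of the 10 genes had 89 PIRs in the merged ESC list and 107 in the merged NEC list, 47 of them in both. With a 10 kb tolerance, 66 of the 89 ESC PIRs had a NEC PIR of the same bait. The replicates held 72 and 54 in ESCs and 79 and 94 in NECs. The ESC numbers thus lay below the NEC numbers. NEC replicate 2, with the most contacts of these baits, had the fewest over all baits (80496, against 85658 to 99497 in the other lists). By gene, the number ran from 0 in ESCs and 1 in NECs for CCNE1 to 23 in ESCs for CDKN1B and 31 in NECs for CCND2. The median of all gene baits was 3 in both merged lists. CCND2 stood at the 96.1st percentile of gene baits in ESCs and the 98.8th in NECs, and CDKN1B at the 97.3rd and 95.2nd. The replicate numbers did not overlap between cell types for CCND2, CDK6 and CDKN1A, all higher in NECs. With the minimum score raised to 15, CCND2 had 5 merged PIRs in ESCs and 16 in NECs, while CDK6 had 2 in each cell type and CDKN1A 1 in each. Of all baits with a PIR in any replicate, 13.1% did not overlap and were higher in NECs and 12.9% were lower, 26.0% in all. With 2 replicates against 2 the smallest p of an exact two-sided permutation test is 0.333, so no test was made. Other genes also start in the baits of CCND2 (RP11-264F23.3 and RP11-264F23.4), CCND3 (TAF8), CDK4 (MARCH9), CDK6 (AC002454.1) and CDKN2A (CDKN2B-AS), and contacts of such a bait cannot be assigned to one of its genes.

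**Figure D3:**
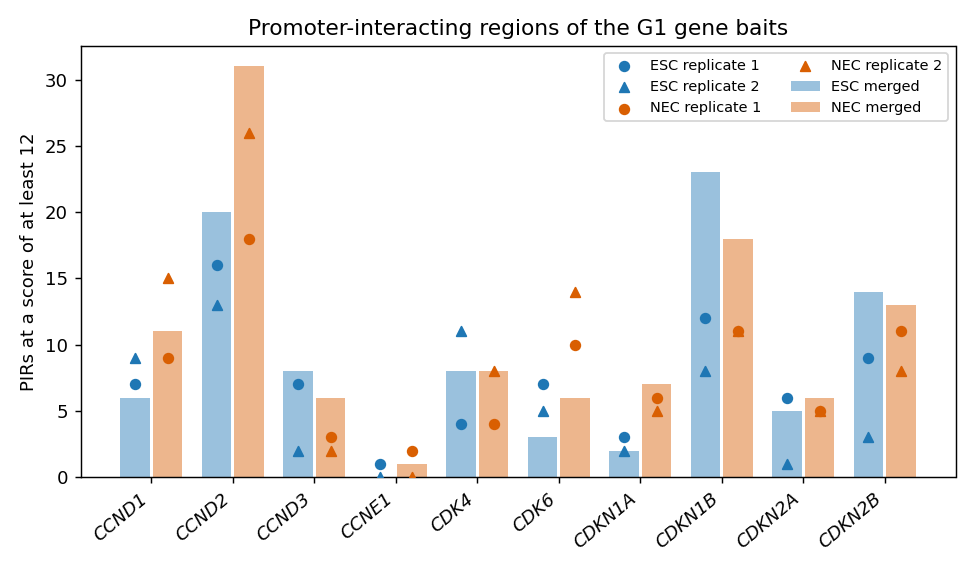
Number of PIRs at a score of at least 12 for each bait, with bars for the merged lists and points for replicate 1 (circles) and 2 (triangles) of ESCs (blue) and NECs (orange). CCND2 has 31 in the merged NEC list, and CCNE1 has at most 2 in any list.

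Over both merged lists there were 149 different contacts called from these baits, 24 of them with another bait (16.1%, against 29.5% over all baits). All 149 were on the chromosome of the bait. Calls from another bait with one of these baits as the PIR numbered 27 in merged ESCs and 28 in merged NECs, and were not added. Of the PIRs, 25 held the start of a gene, 41 an exon, 42 lay in introns and 41 between genes. In all 4 replicates 15 were called (10.1% of 149, against 5.04% over all baits). Contacts called in both NEC replicates and neither ESC replicate numbered 7, of which 6 were in a merged list (4.03%, against 4.31%). Those called in both ESC replicates and neither NEC replicate numbered 5 (3.36%, against 4.44%). The median distance to a merged PIR was 242 kb in either cell type.

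CCND2 had its 34 merged PIRs upstream of the gene, and none downstream. They lay 110.3 to 399.2 kb from the bait, except 1 at 965.3 kb. In replicates the number was 16 and 13 in ESCs and 18 and 26 in NECs. Contacts called in all 4 replicates were 5. The farthest of these, chr12:3991712-4000449, in an intron of RP11-664D1.1, was scored 25.64 in merged ESCs and 26.43 in merged NECs. The one with the highest NEC score, chr12:4146124-4149583, between genes and 235.9 kb upstream, was scored 15.35 in ESCs and 29.80 in NECs. Its replicate scores were 13.91 and 12.71 in ESCs and 20.52 and 20.60 in NECs, values that describe a contact chosen for its NEC score. Of the 17 PIRs in both merged lists, 13 had the higher score in NECs, where 25 of 47 did over the 10 baits and 52.6% over all baits. The contact with chr12:4212977-4217548, 168.4 kb upstream, was called in both NEC replicates (15.12 and 16.62) and in none of the ESC lists, with a merged NEC score of 21.78. That with chr12:4109502-4117605 was called in both NEC replicates (15.66 and 17.98) and neither ESC replicate, but reached 13.40 in merged ESCs against 21.55 in NECs. Beside these, the RNA of CCND2 was 1.30-fold higher in NECs. Whether RNA and contacts changed together was not tested for any of the genes.

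CCND1 had 6 merged PIRs in ESCs against 11 in NECs, and 7 and 9 against 9 and 15 in the replicates, which overlap. Most of them lay upstream, 12 of 13. The contacts with chr11:68873432-68882444 (12.90 in ESCs, 17.18 in NECs) and chr11:68903869-68910597 (12.68 and 15.42) were called in all 4 replicates, 578.5 and 549.2 kb from the bait. Between them, chr11:68886943-68891662 was called in both NEC replicates (13.78 and 20.99) and in no ESC list. The fragment chr11:68933289-68942378 behaved likewise, with a merged NEC score of 12.24. The reverse was seen at chr11:68843286-68856786, which holds an exon of TPCN2 and was called in both ESC replicates (14.07 and 12.84) alone.

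The CCND3 bait leaves out the CCND3 promoters at chr6:41909547-41909796 and chr6:41906944-41907193 (GRCh37), so it does not read contacts of these starts. The former lies in chr6:41908042-41911124, itself a PIR of the bait in merged NECs (14.15) and in no ESC list. CCND3 had 8 merged PIRs in ESCs and 6 in NECs, and 7 and 2 against 3 and 2 in the replicates. In either cell type it was scored highest at chr6:41752785-41755424, 266.6 kb downstream, which holds the starts of FRS3 and TOMM6 (19.14 in ESCs and 15.74 in NECs). It was called in both ESC replicates and in neither NEC replicate. FRS3 had a log2 fold change of 1.18 (standard error 0.20, edgeR, adjusted p = 0.00263) and TOMM6 of −0.18 (standard error 0.09, edgeR, adjusted p = 0.131). CCNE1 had only 1 merged contact called from its own bait, with chr19:30348086-30353440 in NECs at 12.71, and it was called in neither NEC replicate. In the merged NEC list 1 contact with the CCNE1 bait was also called from another bait. From the CCNE1 bait the replicates held 1 and 0 in ESCs and 2 and 0 in NECs.

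CDK4 had 8 merged PIRs in each cell type and shared 1 of them, while 4 of its ESC PIRs had a NEC PIR within 10 kb. The replicates held 4 and 11 in ESCs and 4 and 8 in NECs, which overlap. Contacts called in both ESC replicates and neither NEC replicate were 3, and none of these was in the merged NEC list. They were chr12:57976925-57977501 at an exon of KIF5A (14.52), chr12:58130768-58134515 at the start of TSPAN31 (16.50) and chr12:58139023-58141111 in TSPAN31 (16.65). The last is 6.1 kb from the bait centre. The NEC list had its highest CDK4 score at chr12:58297091-58302599, in XRCC6BP1 (15.98).

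CDK6 had 3 merged PIRs in ESCs against 6 in NECs, and 7 and 5 against 10 and 14 in the replicates. The start of FAM133B, chr7:92218541-92226602, was contacted in all 4 replicates, with merged scores of 21.60 in ESCs and 24.57 in NECs. The start of GATAD1, chr7:92074886-92079481, was also contacted in all 4, at 16.54 and 13.03. Neither gene passed in the RNA, with log2 fold changes of −0.28 (standard error 0.13, edgeR, adjusted p = 0.111) for FAM133B and 0.04 (standard error 0.10, edgeR, adjusted p = 0.731) for GATAD1. Contacts in both NEC replicates and neither ESC replicate were found upstream at chr7:92675795-92688359 (12.29 and 14.10) and within CDK6 at chr7:92241234-92243630 (12.19 and 12.75). The latter was in no merged list. The RNA of CDK6 had a negative log2 fold change, −0.19 (SE 0.12, edgeR adjusted p = 0.209).

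**Figure D4:**
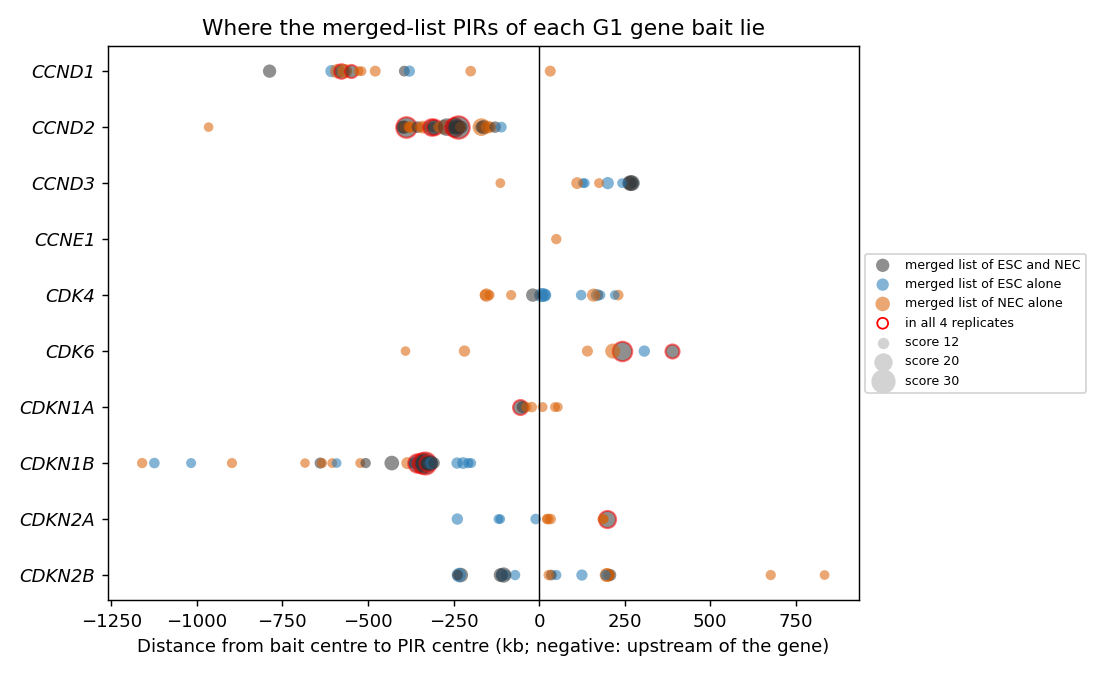
Distance in kb from the bait centre to the centre of each PIR in a merged list, negative upstream of the gene, with point size for the higher merged score, colour for the list or lists and a red rim for PIRs called in all 4 replicates. The points of CCND2 and CDKN1B lie upstream alone, and their red-rimmed points lie 235.9 to 387.6 kb and 327.2 to 357.0 kb away.

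In the merged lists CDKN1A had the shortest reach of the genes with more than 1 PIR, and its farthest merged PIR was 56.4 kb away. The replicate lists reached farther, up to a call at 855.0 kb in NEC replicate 2. CDKN1A had 2 merged PIRs in ESCs against 7 in NECs, and 3 and 2 against 6 and 5 in the replicates. Both ESC contacts were also in the NEC list. That with chr6:36586175-36592233, in an intron of PI16, was called in all 4 replicates and had the highest score in both cell types (17.75 in ESCs and 15.79 in NECs). PI16 itself had 1 and 2 reads in ESCs and 1 and 1 in NECs. CDKN1A kept 1 merged PIR in each cell type with the minimum score raised to 15, and also where both replicates had to list it. Its RNA was 2.64-fold higher in NECs.

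CDKN1B had 23 merged PIRs in ESCs and 18 in NECs, and 12 and 8 against 11 and 11 in the replicates, which overlap. All 31 in either list lay upstream. Contacts called in all 4 replicates were 4, and they lie in LOH12CR1 with other fragments between them. The first, chr12:12507457-12515147, holds the starts of LOH12CR1 and LOH12CR2 (22.74 in ESCs and 20.38 in NECs). The next, chr12:12520463-12529777, had the highest ESC score (25.30, against 25.73 in NECs), and chr12:12530465-12538168 the highest NEC score (28.91, against 20.56 in ESCs). The fourth, chr12:12538329-12543887, was scored 18.14 and 18.87. LOH12CR1 had a log2 fold change of 0.31 (standard error 0.19, edgeR, adjusted p = 0.197). None of the contacts of CDKN1B was listed for both ESC replicates and no NEC replicate, or the reverse, while its RNA was 1.91-fold higher in NECs. A second transcript of CDKN1B starts in the bait of GPR19, which had 14 merged PIRs in ESCs and 11 in NECs.

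The baits of CDKN2A and CDKN2B are neighbours on chromosome 9, separated by 1 HindIII fragment of 86 bases. It is printed with the whole of both sites, in capitals, on the plus strand of GRCh37, because it shows how close the captured fragments are.
Fragment between the baits, chr9:22008507-22008598: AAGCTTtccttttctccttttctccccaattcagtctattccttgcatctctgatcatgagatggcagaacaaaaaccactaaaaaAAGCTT

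CDKN2A had 5 merged PIRs in ESCs and 6 in NECs, and shared 1. The replicates held 6 and 1 in ESCs and 5 and 5 in NECs. The shared PIR, chr9:21801459-21803557, holds the start of MTAP, 197.3 kb downstream, and was called in all 4 replicates (20.85 in merged ESCs and 20.74 in merged NECs). CDKN2B had 14 merged PIRs in ESCs against 13 in NECs, with 7 in common, and 9 and 3 against 11 and 8 in the replicates. It also contacted the MTAP start, at 14.67 in ESCs and 13.03 in NECs. Its highest ESC score was at chr9:22109280-22117282, which holds an exon of CDKN2B-AS 103.4 kb upstream (18.25, and 15.13 in NECs), and its highest NEC score at chr9:21811773-21813450 within MTAP (16.53). The contact with chr9:21810046-21811772 in an intron of MTAP was called in both NEC replicates (13.36 and 12.12) and in no ESC list. Of the 7 PIRs in both merged lists of CDKN2B, 0 had the higher score in NECs, against the same 25 of 47 over the 10 baits and 52.6% over all baits. The CDKN2A and CDKN2B baits shared 4 merged PIRs in ESCs and 3 in NECs, and were joined to each other by a score of 12.97 in merged ESCs alone.

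The fragment with the proximal CDKN2A start, chr9:21971265-21976889, was chosen after its values were seen. It was contacted by the CDKN2B bait at 12.96 in ESCs and 12.22 in NECs, and by the CDKN2A bait at 13.25 in NECs. The contact with the MTAP start had like scores in both cell types, and the RNA of CDKN2A, CDKN2B and MTAP was lower in NECs, with adjusted p under 0.05 in edgeR for each.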

How the data were processed

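Counts and contact scores were the deposited values used. Per the labels, the authors' processing named Bowtie 1.0.0, TopHat2 2.0.8b and hg19 (GRCh37). The authors deposited raw read counts per gene, counted without regard to strand, and CHiCAGO scores (a weighted −log p-value, at least 12) for pairs of HindIII fragments. The 2 Hi-C samples were not analysed here.

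Library totals were 19234087 and 25356382 counts (ESCs) and 20793224 and 24323762 (NECs). edgeR 4.0.16 in R 4.3.3 kept 17564 genes (filterByExpr, minimum count 10), normalised by TMM and tested by quasi-likelihood. Log2 fold changes used a prior count of 0.125. The standard errors beside edgeR values were derived, as the absolute log2 fold change divided by the square root of the F statistic. The authors used DESeq2, and DESeq2 1.42.0 was an alternative here. Exon lengths came from GENCODE lifted to GRCh37. Contacts were read in Python with pandas. A PIR distance ran between fragment centres. The edgeR step was tested on simulated data before use. Intervals cover counting error only.

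The members and lists were chosen with earlier results of these data known. Named genes were the 10 members, list genes that were called or among the 4 with the largest change of a list, the 3 tested genes nearest to the members with the largest rise and fall, overlapping genes, and, for each bait, its highest-scored PIRs, those in all 4 replicates, those in both replicates of 1 cell type and neither of the other, and genes starting there. Alternatives were other normalisations, filters, thresholds and tests, a replicate block, leaving out each replicate, a score of at least 15, calls in both replicates, no bait pairs, a 10 kb tolerance and baits of other transcript starts.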

Additional observations from a re-analysis of the deposited data

How the results depend on the processing

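With no fold change threshold, 10738 of all tested genes, 7 of the 10 members and 43 genes of the pathway lists were called, against 3697, 2 and 5. With DESeq2's test, or with at least 1 CPM in 2 libraries, which removed CDKN2B before the test, 1 member was called. With members that share exons with a gene on the opposite strand left out, 1 was called, CDKN2B. Leaving out each library in turn gave 3294 to 4105 genes, 2 to 2 members and 5 to 6 list genes, and without ESC replicate 1 the called members were CDKN1A and CDKN2A. Of 99 alternative values of the members, 0 changed sign, 10 lost and 8 gained an adjusted p under 0.05. Of 239 values of named list genes, 0 changed sign and 6 lost it. CCND1 had an adjusted p under 0.05 under 5 of 10 alternatives, CCND3 under 3 and CDK4 under 4. Same-numbered libraries did not deviate together over genes (correlation 0.0347). With 2 replicates per cell type this is a single correlation, and it cannot decide whether the libraries were paired. With the replicate block 3698 genes, 2 members and 5 list genes were called. At a score of at least 15 the members had 25 PIRs in ESCs, 40 in NECs and 17 in both, and all baits had 27085, 29316 and 12589. Requiring calls in both replicates gave 24, 26 and 15 for the members and 22544, 20804 and 7736 for all baits. From 1 replicate alone the members had 54 to 72, 79 to 94 and 20 to 26, and the shared PIRs of all baits were 16805 to 25256. With pairs of baits left out, all baits shared 26392. The cause of these shifts was not tested. CDKN2A, CDKN2B and CDKN2C had at most 40 reads in any library.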
